A study of Mus musculus with 8 samples.

Results

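Myeloid cells taken from MC38 tumors were compared with those taken from the blood of the same kind of tumor-bearing mice, in unirradiated animals carrying the wild-type (WT) label. MC38 is a transplantable mouse colon carcinoma line. The study asked how the m6A reader YTHDF2 and ionizing radiation (IR) shape myeloid-derived suppressor cells. By its methods, live cells positive for CD45 and CD11b and high in Ly6C, the phenotype called mMDSC (monocytic), were sorted from either tissue, whereas the labels name CD11b+ myeloid cells. WT mice were Ythdf2 fl/fl without Cre and cKO mice were Lyz2-Cre Ythdf2 fl/fl, in which Cre is driven from the Lyz2 locus that is active in myeloid cells. Male and female mice aged 8 to 10 weeks were used, and each group was a pool of 5 mice. The control tumors had received 0 Gy, and the irradiated ones 20 Gy, 3 days before collection.

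Tumor cells and blood cells came from 1 droplet library each, in which WT cells carried hashtag antibody B0301 and cKO cells carried B0302. Barcodes were kept with at least 500 gene counts of unique molecular identifiers (UMIs), at least 200 genes, at most 25% mitochondrial UMIs and at least 20 hashtag UMIs. A cell was taken as WT where B0301 was at least as high as B0302. Barcodes in which S100a8, S100a9, Retnlg, Csf3r and Cxcr2 made up 5% or more of the gene UMIs were left out as neutrophils. These rules gave 4615 cells, 2694 from tumor and 1921 from blood, of 19868 cells in the 8 groups of the series. The neutrophil rule left out 3180 of 5101 WT blood cells (62.3%) and 9 of 2703 WT tumor cells (0.333%), so the 5 genes of that rule are not results here. Tumor cells held 22036077 UMIs (median 6684 per cell) and blood cells 14434092 UMIs (median 8417 per cell). Each side was 1 pool of mice without a replicate, so tumor and library cannot be told apart, and no test, p-value or error between pools was available. Levels are UMIs summed over cells and scaled to counts per 1000000 gene UMIs (CPM), and every interval is at the 95% level and covers counting error only.

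Properties of the tumor library touch all results. Of the kept tumor barcodes, 2584 (95.9%) also held at least 500 UMIs in the irradiated tumor matrix, with a median of 0.455 times the UMIs found here, while 4 barcodes were shared by the kept tumor and the kept blood cells. Of the 2584, 56 held 20 or more hashtag UMIs in the irradiated matrix. Among the 110 tumor cells that were not shared, 869 of the 1616 genes higher in tumor were still past the limit used here and 503 had the opposite sign, while Arg1, C1qa and Hp had log2 ratios of 12.86, 12.22 and −2.89. B0301 was less than 3 times B0302 in 1121 tumor cells (41.6%) against 34 blood cells (1.77%). Those tumor cells had an Arg1 level of 884 CPM against 2186 CPM in the others, and a Ly6c2 level of 537 against 396 CPM. With a required margin of 3, which left these cells out, Arg1 was at 14.89 against 14.91 on the log2 scale with 1 UMI added, and Hp at −4.32 against −3.22. That margin gave 1303 genes higher and 1516 lower in tumor, of 9580 with at least 100 UMIs. Without it, 1616 were higher and 1529 lower, of 10224. The hashtag labels were checked on Lyz2, which was at 6766 CPM in WT tumor cells and 20655 in WT blood cells, against 478 and 1150 CPM in the cKO-labelled cells. Ythdf2 went against the labels, at 57.5 and 42.5 CPM in the cells labelled WT against 353 and 375 CPM in the cells labelled cKO, and 3′ tags do not check the deleted part of the gene.

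Monocytes that express Ly6C leave the bone marrow through the chemokine receptor CCR2, circulate in the blood, and enter inflamed tissue and tumors. There they can turn into macrophages and acquire suppressive functions, among them arginine breakdown by arginase 1 (Arg1) and release of vascular growth factors. Low oxygen acts on such cells through hypoxia-inducible factors, which bind a short DNA core, while interferons and NF-kB act through elements of their own.

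Promoter windows are shown to give the letters near the starts of genes described below. The genes are from the glycolysis and hypoxia, interferon response, and NF-kB and chemokine lists. They come from the RefSeq promoters of build GRCm38.p6, 250 bases before to 50 after each start. The core ACGTG, read on both strands with overlapping matches counted separately, was in 21 of the 27 measured glycolysis and hypoxia genes that had a promoter (77.8%), against 30.3% of the 8157 genes with at least 100 UMIs and a promoter, and 21.8% of all 27025 promoters. The capitals mark it in Ldha (lactate dehydrogenase, chr7:46845619-46845814, plus strand), Pgk1 (phosphoglycerate kinase, chrX:106186910-106187013, plus strand) and Slc16a3 (lactate exporter, chr11:120949000-120949097, plus strand). Of all genes higher in tumor that had a promoter, 31.0% held ACGTG, near the share of the measured genes, and of those lower 24.3%. The sequences and shares describe letters and not a bound factor. The hypoxia, interferon and NF-kB lists were gathered by pathway. Higher shares of the matching letters in them, here and below, can follow from that choice and are no result of the comparison.
Ldha: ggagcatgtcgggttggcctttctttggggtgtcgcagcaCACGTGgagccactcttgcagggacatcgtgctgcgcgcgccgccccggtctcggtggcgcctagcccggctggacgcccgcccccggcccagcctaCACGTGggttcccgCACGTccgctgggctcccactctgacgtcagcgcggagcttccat
Pgk1: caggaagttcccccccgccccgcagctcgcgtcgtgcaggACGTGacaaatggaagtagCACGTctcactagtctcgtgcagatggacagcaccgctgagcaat
Slc16a3: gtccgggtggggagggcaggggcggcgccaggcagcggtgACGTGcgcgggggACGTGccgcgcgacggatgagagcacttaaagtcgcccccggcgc

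The interferon-stimulated response element, searched as GAAA, any 2 bases and GAAA on both strands, was in 11 of 18 interferon response genes with a promoter (61.1%), against 4.13% of the measured genes and 3.99% of all promoters. Capitals mark it in Gbp2 (a guanylate-binding protein, chr3:142620564-142620653, plus strand), Cxcl10 (a chemokine for T cells, chr5:92349053-92349139, minus strand) and Isg15 (a ubiquitin-like protein, chr4:156200835-156200936, minus strand). In Gbp2 the element lies on the opposite strand. Cxcl10 is not one of the 11 but is from the chemokine ligands, of which 2 of 14 with a promoter held the element (14.3%). Of all genes with a promoter, 4.386% of those higher and 4.355% of those lower in tumor held the element.
Gbp2: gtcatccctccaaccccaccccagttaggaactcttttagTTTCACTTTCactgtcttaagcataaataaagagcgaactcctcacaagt
Cxcl10: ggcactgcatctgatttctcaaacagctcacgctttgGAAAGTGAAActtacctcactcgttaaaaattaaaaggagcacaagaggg
Isg15: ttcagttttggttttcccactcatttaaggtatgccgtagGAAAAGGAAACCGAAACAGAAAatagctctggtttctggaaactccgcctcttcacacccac

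The kappa-B element, searched as GGG, any 2 bases and TTTCC on both strands, was in 6 of 21 NF-kB pathway and target genes (28.6%) and in 4 of 14 chemokine ligands (28.6%), against 2.10% of the measured genes and 1.90% of all promoters. Capitals mark it in Cxcl1 (chr5:90891116-90891223, plus strand) and Cxcl2 (chr5:90903762-90903870, plus strand), chemokines that attract neutrophils, and in Nfkbia (the NF-kB inhibitor IkBa, chr12:55492627-55492716, minus strand). In Cxcl1, 1 match lies on each strand. Of all genes with a promoter, 2.63% of those higher and 2.43% of those lower in tumor held the element.
Cxcl1: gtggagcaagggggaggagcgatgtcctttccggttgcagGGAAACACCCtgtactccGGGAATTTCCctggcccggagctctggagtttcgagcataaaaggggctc
Cxcl2: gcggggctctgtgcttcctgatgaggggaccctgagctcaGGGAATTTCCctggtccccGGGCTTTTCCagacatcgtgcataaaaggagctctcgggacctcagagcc
Nfkbia: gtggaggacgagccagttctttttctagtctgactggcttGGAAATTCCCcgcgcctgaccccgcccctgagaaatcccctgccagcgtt

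The tumor and blood cells differed over a large part of the transcriptome. Arg1, the complement gene C1qa, the osteopontin gene Spp1 and the activin gene Inhba marked the tumor side, and Hp and Pglyrp1 the blood side. A gene was called where its CPM ratio, with 1 UMI added to each sum, was at least 2-fold, among genes with at least 100 UMIs over both groups. Of 10224 such genes, 1616 (15.8%) were higher and 1529 (15%) were lower in tumor. The median log2 ratio of all these genes was −0.11, and it came to 0.03 with TMM and 0.07 with DESeq2 scaling. Large ratios lay mostly on the tumor side, with 457 genes at a log2 ratio of 4 or more against 46 at −4 or less. The fibroblast or stroma-like cells described below weighed on these counts. Without them 1010 genes were higher and 1616 lower, of 9582 with at least 100 UMIs. The counts of each gene list below are to be read beside the 15.8% higher and 15% lower of all genes.

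**Figure D1:**
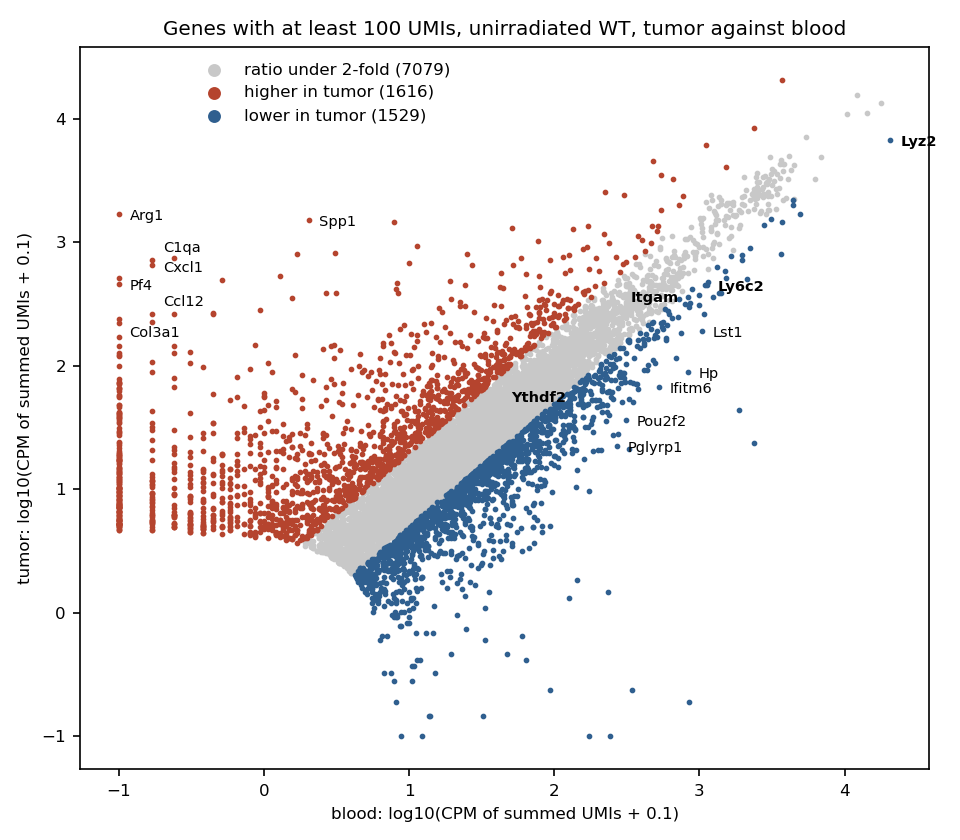
Each point is 1 of the 10224 genes with at least 100 UMIs, with its blood level on the x axis and its tumor level on the y axis, both as log10 of CPM plus 0.1. The 1616 genes higher in tumor reach far from the diagonal, with Arg1 at 1692 CPM in tumor and 0 in blood, while the 1529 lower genes lie closer to it.

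The sharpest difference was in Arg1, which breaks down arginine that T cells need. It had 37277 UMIs in the tumor cells and 0 in the blood cells, at least 8139-fold higher against the limit of 3 UMIs that a count of 0 allows over the group. The same limit gave at least 2484-fold for Pf4, a heparin-binding chemokine that some macrophages make, and at least 2189-fold for Mmp12, the macrophage elastase. C1qa, a subunit of the first complement component, was at 713 CPM in tumor and had 1 UMI in blood, a log2 ratio of 12.49 (10.85 to 18.63). Inhba, a subunit of activin A, was at 749 CPM with 2 UMIs in blood, a log2 ratio of 11.92 (10.55 to 15.45). Spp1, the secreted matrix protein osteopontin, was at 1526 CPM in tumor and 1.94 CPM in blood, a log2 ratio of 9.58 (9.09 to 10.21). Dab2, an endocytic adaptor, and Pdpn, the membrane glycoprotein podoplanin, were at 260 against 0.346 CPM (9.34) and at 224 CPM with 1 UMI in blood (10.82, 9.18 to 16.96).

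On the blood side, genes of circulating monocytes stood together. Of 23 measured genes of the blood-monocyte and homing list, 0 were higher and 19 lower in tumor, with a median log2 ratio of −2.12 against −0.11 over all genes. Hp, haptoglobin, was at 89.7 CPM in tumor and 834 in blood, a log2 ratio of −3.22 (−3.29 to −3.15), and Ccr2, the receptor for CCL2, at 323 against 866 CPM (−1.43). S1pr5, a receptor through which patrolling monocytes leave the marrow, was at 1.27 against 24.0 CPM (−4.18), and 45.2% of its blood UMIs lay in NK cell-like cells. Over the alternatives the S1pr5 ratio ranged from −6.32 with a hashtag margin of 3 to −1.08 without the shared barcodes, and the Hp ratio from −4.32 with that margin to −1.85 among cells with a Ly6c2 signal. Itga4 and Itgal, the alpha chains of VLA-4 and LFA-1, were at 101 against 442 CPM (−2.12) and at 93.1 against 414 CPM (−2.15). Cxcr4, which holds cells in the marrow, was at 141 CPM in tumor and 108 in blood (0.38), and 39.9% of its blood UMIs lay in neutrophil-like cells. Its ratio was 2.10 between the monocyte-like blood clusters (1 and 18) and tumor clusters 0, 2, 5, 6, 7 and 9. These tumor clusters are called the monocyte and macrophage part of the tumor, although 0, 6 and 7 had too few raised markers for a name. The Cxcr4 ratio was 1.80 among cells with a Ly6c2 signal, and within the 2-fold limit in 16 of 21 alternatives.

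The sort markers were present on both sides. Ly6c2, which encodes Ly6C, was at 449 CPM in tumor and 1135 CPM in blood, a log2 ratio of −1.34 (−1.37 to −1.30). Itgam, which encodes CD11b, was at 372 and 284 CPM (0.39), and Ptprc, which encodes CD45, at 512 and 1515 CPM (−1.57). A further comparison took only cells with a clear Ly6c2 signal, at least 2 UMIs that made up 0.05% of the gene UMIs (804 tumor and 998 blood cells). Their Ly6c2 ratio of −0.06 follows from choosing the cells on this gene and is not a result. The choice does not single out monocytes, since Ly6c2 was also raised in NK cell-like blood cluster 8. Among these cells Arg1 was still 12.77 higher on the log2 scale with 1 UMI added, C1qa 11.10 and Spp1 9.30, and Hp was at −1.85. The number of higher genes was 711 and of lower genes 1231 in that comparison, of 8043 with at least 100 UMIs.

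Other genes with the strongest ratios toward blood were Pglyrp1, a peptidoglycan-binding protein of granules, at 22.3 against 271 CPM (−3.60), and Pou2f2, the transcription factor Oct-2, at 36.3 against 312 CPM (−3.10). Pglyrp1 is also a marker used here for nonclassical monocytes, and 37.2% of its blood UMIs lay in neutrophil-like cells that had passed the neutrophil rule. Ifitm6, an interferon-induced membrane protein, was at 67.6 against 524 CPM (−2.96) and Lst1 at 191 against 1041 CPM (−2.45). The myeloid signalling adaptor Nfam1, the sorting receptor Sorl1, the adhesion receptor Adgre5 (CD97) and the lectin Clec4a3 had log2 ratios of −2.78, −2.66, −2.58 and −2.54. Tmcc1, Dleu2, Add3, Ypel3 and Fam111a were also among the 15 lowest genes of high level, with ratios from −3.35 to −2.46. The free RNA level in blood was also above that of the kept cells for Ifitm6, Lst1, Nfam1, Sorl1, Adgre5, Tmcc1 and Ypel3. It was below for Pou2f2, Clec4a3, Dleu2, Add3 and Fam111a. Lyz2, lysozyme, was 3.05-fold lower in tumor (−1.61).

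Macrophage genes stood on the tumor side. Of 20 measured macrophage identity and scavenger genes, 15 were higher and 1 lower in tumor, with a median log2 ratio of 3.07. C1qb and C1qc, the other chains of C1q, were at 819 against 2.98 CPM (8.08) and at 491 against 0.416 CPM (10.03). Mrc1, the mannose receptor CD206, was at 176 against 7.21 CPM (4.6). Folr2, the folate receptor of resident-type macrophages, had 431 UMIs in tumor and 0 in blood, at least 94.1-fold. The gene that was lower was Selenop, the selenium carrier, at 79.4 against 231 CPM (−1.54). Csf1r, the M-CSF receptor, and Adgre1, which encodes F4/80, lay within 2-fold, at 296 against 403 CPM and at 63.9 against 85.4 CPM.

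Suppressive and angiogenic genes were higher in tumor in 17 of 21 cases and lower in 1, with a median log2 ratio of 4.23. Vegfa, the main vascular growth factor, was at 465 CPM in tumor and 8.18 in blood (5.82, 5.57 to 6.10). Cd274, which encodes the checkpoint ligand PD-L1, was at 158 against 11.2 CPM (3.82), and Thbs1, thrombospondin 1, at 1352 against 170 CPM (2.99). Nos2, which makes nitric oxide, was at 108 CPM with 1 UMI in blood (9.76, 8.12 to 15.91), and Il10, an anti-inflammatory cytokine, at 15 CPM with 2 UMIs in blood (6.28, 4.89 to 9.81). Areg, an epidermal growth factor receptor ligand, was at 98.2 against 0.277 CPM (8.21). The exception was Vsir, the checkpoint protein VISTA, at 87.7 in tumor and 303 CPM in blood (−1.79).

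Nearly all glycolysis and hypoxia genes were higher in tumor. Of 29 measured members, 25 were higher and 0 lower in tumor, with a median log2 ratio of 1.95, and 22 were higher without the stroma-like cells. Among the glycolytic enzymes, Tpi1 was at 714 against 93.9 CPM (2.93), Pgk1 at 875 against 158 CPM (2.47), Ldha at 1174 against 219 CPM (2.42), Gapdh at 2365 against 771 CPM (1.62), and Pkm at 1348 against 467 CPM (1.53). The glucose importer Slc2a1 was at 179 against 26.2 CPM (2.77), the lactate exporter Slc16a3 at 255 against 67.5 CPM (1.92), and Pdk1, which keeps pyruvate out of mitochondria, at 29.3 against 6.37 CPM (2.19). Ldha, Pgk1 and Slc16a3 carry the ACGTG letters shown above. Larger ratios were seen in Hilpda, a lipid droplet protein induced by low oxygen, at 388 against 8.24 CPM (5.55), and in Egln3, an oxygen-sensing prolyl hydroxylase, at 45.4 against 1.73 CPM (4.67). Ddit4, a hypoxia-inducible inhibitor of mTOR, had an interval that spanned 0, at 36.1 against 37.1 CPM (−0.04, −0.20 to 0.12). Hif1a, which encodes the oxygen-regulated factor itself, was at 267 against 77.7 CPM (1.78).

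**Figure D2:**
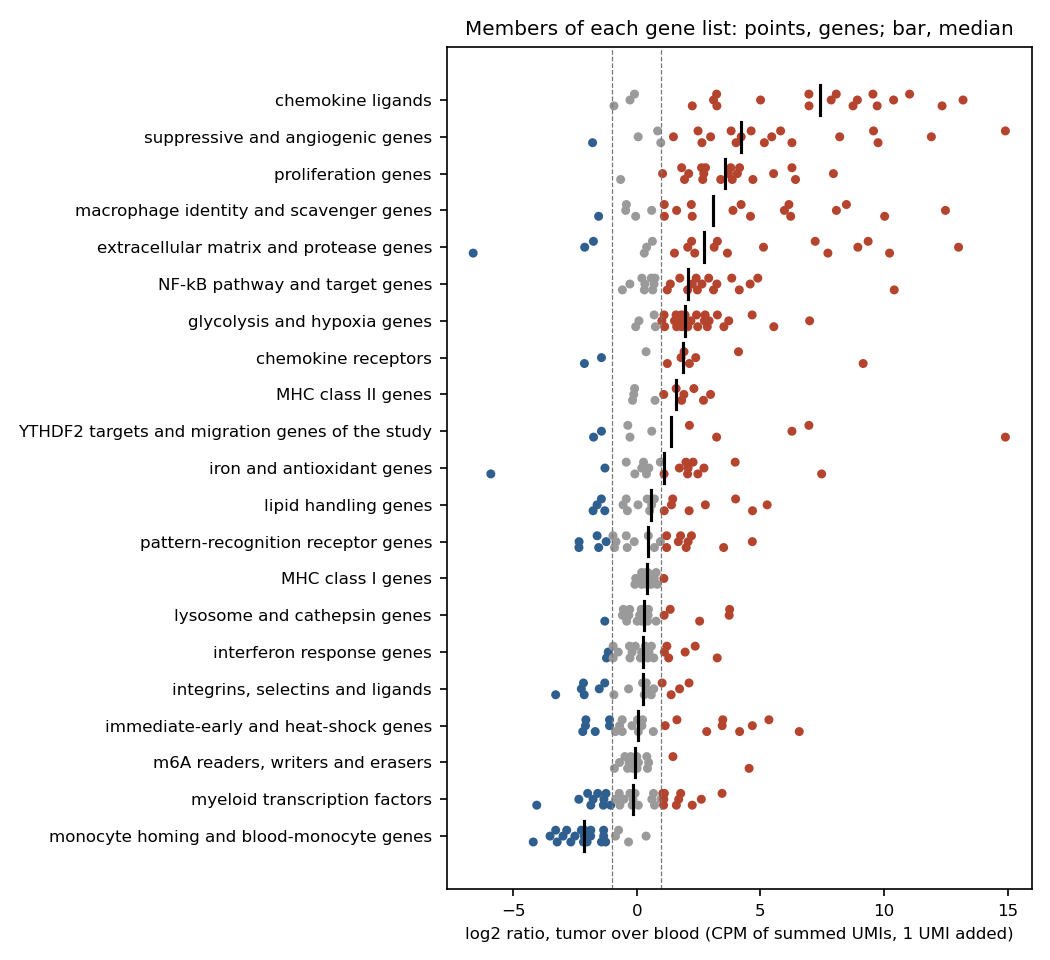
Each row is a gene list, each point 1 of its measured genes and each bar the list's median, placed on the x axis by the log2 ratio of CPM in tumor over blood with 1 UMI added. Chemokine ligands (median 7.42) and suppressive genes (4.23) lie far to the tumor side and the blood-monocyte genes (−2.12) to the blood side, while MHC class I (0.41) and m6A genes (−0.06) sit near 0.

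Chemokine ligands had the largest median of the lists, at a log2 ratio of 7.42 (6.97 with the members at 0 in blood set to their bound), and 17 of 20 measured ligands were higher and 0 lower. Cxcl9 and Cxcl10, ligands of the T cell receptor CXCR3, were at 802 against 1.59 CPM (8.93) and at 808 against 25 CPM (5.01). Ccl2, the ligand of CCR2, was at 1269 against 135 CPM (3.23), and Cxcl16, the ligand of CXCR6, at 388 against 3.05 CPM (6.97). Cxcl2 was at 4562 against 482 CPM (3.24). Cxcl1 was at 649 CPM with 1 UMI in blood (12.35, 10.71 to 18.50), but 59.4% of its tumor UMIs lay in the stroma-like cells. Ccl12, a further CCR2 ligand, was at 261 CPM with 1 UMI in blood (11.04, 9.40 to 17.18).

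Ccl5, Ccl6 and Ccl9 were the ligands within 2-fold. Ccl5, which attracts T cells and is made by NK and T cells, was at 774 CPM in tumor and 934 in blood (−0.27). Of its blood UMIs, 96.8% lay in the NK cell-like cells, and between the monocyte-like blood cells and the monocyte and macrophage part of the tumor cells its log2 ratio was 5.64. Ccl6 was at 601 against 1139 CPM (−0.92) and Ccl9 at 331 against 352 CPM (−0.09).

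Most chemokine receptors were higher in tumor. Of 10 measured receptors, 7 were higher and 2 lower, with a median of 1.85. Ccrl2, which presents chemerin, was at 300 against 79.4 CPM (1.92), and Ccr1 at 292 against 124 CPM (1.24). Ccr7, which guides cells to lymph nodes, was at 46.7 against 10.6 CPM (2.13), and 70.0% of its tumor UMIs lay in a dendritic cell-like cluster of 26 cells. Of its blood UMIs, 67.3% lay in T cell-like and 28.1% in B cell-like cells. The Ccr7 ratio was −0.63 among the cells with a Ly6c2 signal, 4.65 without the named non-monocytic clusters, and 5.78 between monocyte-like blood clusters and the monocyte and macrophage part of the tumor. The receptors that were lower were Ccr2 and Cx3cr1, the fractalkine receptor of patrolling monocytes, at 49.2 against 214 CPM (−2.12). Ackr3, a scavenger of CXCL12, was at 31.3 CPM with 0 UMIs in blood, at least 151-fold higher, and 83.3% of its tumor UMIs lay in stroma-like cells. Ccr1 was no longer higher when blood neutrophils were kept (−0.67).

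Genes of NF-kB signalling and its inflammatory targets were higher in tumor in 16 of 25 cases and lower in 0, with a median of 2.06. Il1b was at 6075 against 1108 CPM (2.45) and Tnf at 180 against 10.1 CPM (4.15), both early cytokines of activated myeloid cells. Il1a was at 264 CPM with 2 UMIs in blood (10.42, 9.04 to 13.94), and Il6 at 28.5 against 0.901 CPM (4.90). Nfkbia, the inhibitor that NF-kB induces against itself, was at 1811 against 541 CPM (1.74), and Bcl2a1b, a survival factor, at 655 against 27.2 CPM (4.59). Birc3 and Tnfaip2 were members within 2-fold, at −0.58 and −0.28. In blood the Il1b level was 12357 CPM in the neutrophil-like cells and 110 CPM in the monocyte-like cluster 1. With the blood neutrophils kept, the Il1b ratio was 0.46 and the Cxcl2 ratio 1.12.

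Receptors that sense microbes and damage did not share a direction, with 9 of 23 higher, 5 lower and a median of 0.47. Among all genes 15.8% were higher and 15% lower. Cd14, the lipopolysaccharide co-receptor, was at 2563 against 224 CPM (3.52), Tlr2 at 347 against 82.2 CPM (2.08) and Tlr4 at 27.9 against 8.11 CPM (1.77), all receptors of the cell surface. The lectin Clec4n (Dectin-2) was at 487 against 19.0 CPM (4.68), and Fcgr2b, the inhibitory Fc receptor, at 598 against 129 CPM (2.22). In contrast Tlr7 and Tlr8, which sense RNA in endosomes, were at 14.2 against 71.8 CPM (−2.34) and at 5.72 against 17.5 CPM (−1.60), and the cytosolic sensor Nod1 at 8.76 against 44.3 CPM (−2.33).

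MHC class II genes, which present peptides to CD4 T cells, were higher in 7 of 11 cases and lower in 0, with a median of 1.59. H2-Eb1 was at 2410 against 304 CPM (2.99), H2-Ab1 at 3530 against 543 CPM (2.70), H2-Aa at 3264 against 657 CPM (2.31) and the invariant chain Cd74 at 8411 against 2387 CPM (1.82). Ciita, the transcriptional activator of these genes, did not differ by 2-fold, at 30.4 against 34.1 CPM (−0.17). In blood, 56.0% of the H2-Eb1 UMIs lay in dendritic cell-like and 31.8% in nonclassical monocyte-like cells, and 0.365% in the monocyte-like cluster 1. Between monocyte-like blood cells and the monocyte and macrophage part of the tumor, the H2-Eb1 ratio was 8.82, that of Cd74 5.45 and that of Ciita 2.33. Of 14 measured MHC class I genes, only H2-Q7 was past the limit, at 179 against 83.4 CPM (1.10), and the median was 0.41. B2m, the shared light chain, was at 3379 against 2471 CPM (0.45), and H2-K1 at 1567 against 1050 CPM (0.58).

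Interferon response genes had a mixed pattern, with 6 of 22 higher, 2 lower and a median of 0.27. Over all genes 15.8% were higher and 15% lower, with a median of −0.11. Gbp2 was at 422 against 44.1 CPM (3.26) and Gbp5 at 68.0 against 13.2 CPM (2.36), both guanylate-binding proteins that interferon gamma induces. Rsad2 (viperin) was at 141 against 36.3 CPM (1.96) and Isg15 at 401 against 164 CPM (1.29). Ifitm3, which blocks virus entry, was lower at 1998 against 4436 CPM (−1.15), as was Ifit3b at 3.27 against 7.69 CPM (−1.22). Usp18, a brake on type I interferon signalling, was at 16.7 against 32.5 CPM (−0.95).

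Iron and antioxidant genes were higher in 10 of 19 cases and lower in 2, with a median of 1.11. Fth1, the ferritin heavy chain, was at 20646 against 3716 CPM (2.47), while Ftl1, the light chain, was at 4317 against 3750 CPM (0.20). The metallothioneins Mt1 and Mt2 were at 761 against 115 CPM (2.72) and at 146 against 0.762 CPM (7.48), with the Mt2 ratio at 6.04 without the stroma-like cells. Srxn1, which repairs oxidized peroxiredoxins, was at 51.2 against 3.19 CPM (3.98). Cybb, the catalytic subunit of the phagocyte oxidase, was lower at 448 against 1091 CPM (−1.28). Slc40a1, the iron exporter ferroportin, was at 0.499 against 33.0 CPM (−5.90), and was at −1.0 between monocyte-like blood cells and the monocyte and macrophage part of the tumor.

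Genes of the matrix, lysosome and lipid handling were less uniform. Of 20 matrix and protease genes 14 were higher and 3 lower, with a median of 2.74. Mmp13, a collagenase, had 0 UMIs in blood and was at least 316-fold higher, and Mmp14, a membrane-bound protease, was at 127 against 0.139 CPM (9.36, 7.99 to 12.89). Mmp9 and Mmp8, proteases of neutrophil granules, were lower at 1.23 against 125 CPM (−6.61) and at 19.5 against 84.0 CPM (−2.10), and the plasminogen activator inhibitor Serpinb2 at 22.9 against 77.2 CPM (−1.75). Of the blood Mmp9 UMIs, 63.9% lay in neutrophil-like cluster 3 and 28.3% in cluster 13, and its ratio was −2.70 between the monocyte-like blood clusters and the monocyte and macrophage part of the tumor. Of the blood Mmp8 UMIs, 68.8% lay in monocyte-like cluster 1, and its ratio there was −2.26.

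Of 21 lysosome and cathepsin genes 5 were higher and 1 lower, with a median of 0.30, beside 15.8% higher and 15% lower over all genes. Ctsl, cathepsin L, was at 568 against 42.5 CPM (3.74) and the asparaginyl endopeptidase Lgmn at 363 against 62.2 CPM (2.55), whereas Ctss, cathepsin S, was at 2101 against 1705 CPM (0.30). Of 20 lipid genes 8 were higher and 4 lower, with a median of 0.56. Olr1, a receptor for oxidized lipoprotein, was at 61.1 against 1.52 CPM (5.28), and Abca1, which exports cholesterol, at 82.9 against 5.13 CPM (4.0). Lipa, the lysosomal lipase, was lower at 29.5 against 72.3 CPM (−1.29). Pparg and Fabp4 were lower as well, at −1.76 and −1.43, but they were at 0.83 and 4.41 between the monocyte-like blood cells and the monocyte and macrophage part of the tumor. Apoe lay within 2-fold at 1334 against 877 CPM (0.60).

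Transcription factors were evenly divided, with 10 of 33 higher, 10 lower and a median of −0.15. All genes were also nearly evenly divided, with 15.8% higher and 15% lower. Bhlhe40, a repressor of Il10, was higher at 232 against 37.8 CPM (2.61). Nfe2, a factor of the megakaryocyte and erythroid lineages, was at 4.95 against 82.4 CPM (−4.04), Cebpd at 41.9 against 213 CPM (−2.34), and Cebpb at 1778 against 2150 CPM (−0.27). Klf2, a factor linked to quiescence, was at 389 against 1408 CPM (−1.86), and was at −2.94 without the stroma-like cells, which held 60.8% of its tumor UMIs.

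Immediate-early genes lay on both sides. Fos was at 798 against 3621 CPM (−2.18), Dusp1, a phosphatase that turns off MAP kinases, at 506 against 2128 CPM (−2.07), and Egr1 at 260 against 1081 CPM (−2.06). Higher in tumor were Ier3 at 1308 against 51.1 CPM (4.68) and the nuclear receptor Nr4a3 at 135 against 3.26 CPM (5.35). In all, 9 of 25 immediate-early and heat-shock genes were higher and 6 lower, beside 15.8% and 15% over all genes. Their median was 0.07. Hspa8 was at 2028 against 1978 CPM (0.04). Per the methods, tumors were digested with enzymes, and such a step is not described for blood, so tissue and handling cannot be told apart for these genes.

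Most m6A genes lay within 2-fold, as did most of all genes. Of 16 readers, writers and erasers 2 were higher and 0 lower, beside 15.8% higher and 15% lower over all genes. Their median was −0.06, against −0.11 over all genes. Ythdf2 itself was at 57.5 against 42.5 CPM (0.44, 0.30 to 0.58), the nuclear reader Ythdc1 at 127 against 126 CPM (0.00), and Mettl3, the catalytic writer, at 7.35 against 13.8 CPM (−0.90). The higher genes were the readers Igf2bp2 (4.55) and Igf2bp3 (1.47), of which the latter was at −0.44 without the stroma-like cells. Among the genes the study names as targets of YTHDF2, Metrnl, a secreted factor, was at 216 against 278 CPM (−0.36), and Smpdl3b, a membrane phospholipase that dampens Toll-like receptor signals, at 48.5 against 31.8 CPM (0.61).

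Proliferation genes were higher in 19 of 20 cases, with a median of 3.55, and the median was lower without the stroma-like cells. Mki67 was at 49.2 against 3.33 CPM (3.86) and Birc5, survivin, at 34.4 against 0.346 CPM (6.42). The level of Mki67 was 176 CPM in the stroma-like tumor cells and 133 CPM in macrophage-like cluster 9, against 4.18 CPM in cluster 0. Without the stroma-like cells the list had a median of 2.19, with 16 genes higher and 1 lower.

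The kept cells fell into 19 clusters, which were named as "-like" only from marker genes. The clusters were built from the same cells and genes, so the levels within them are descriptions. Cells of tumor and blood hardly mixed. The blood cells were mainly in monocyte-like cluster 1 (625 cells), neutrophil-like cluster 3 (376), nonclassical monocyte-like cluster 4 (354) and NK cell-like cluster 8 (208), and these held 3, 7, 4 and 4 tumor cells. The tumor cells were mainly in unnamed cluster 0 (699), macrophage-like clusters 2 (466), 5 (282) and 9 (201), and unnamed clusters 6 (326) and 7 (232), and of these clusters 5 held 51 and 6 held 1 blood cell. Cluster 5 had a low median of 1372 UMIs. Its macrophage markers summed to 6817 CPM in its tumor cells and 261 CPM in its 51 blood cells. Red cell markers summed to 1.64 and 79499 CPM there, so the name macrophage-like describes the tumor cells of this cluster.

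**Figure D3:**
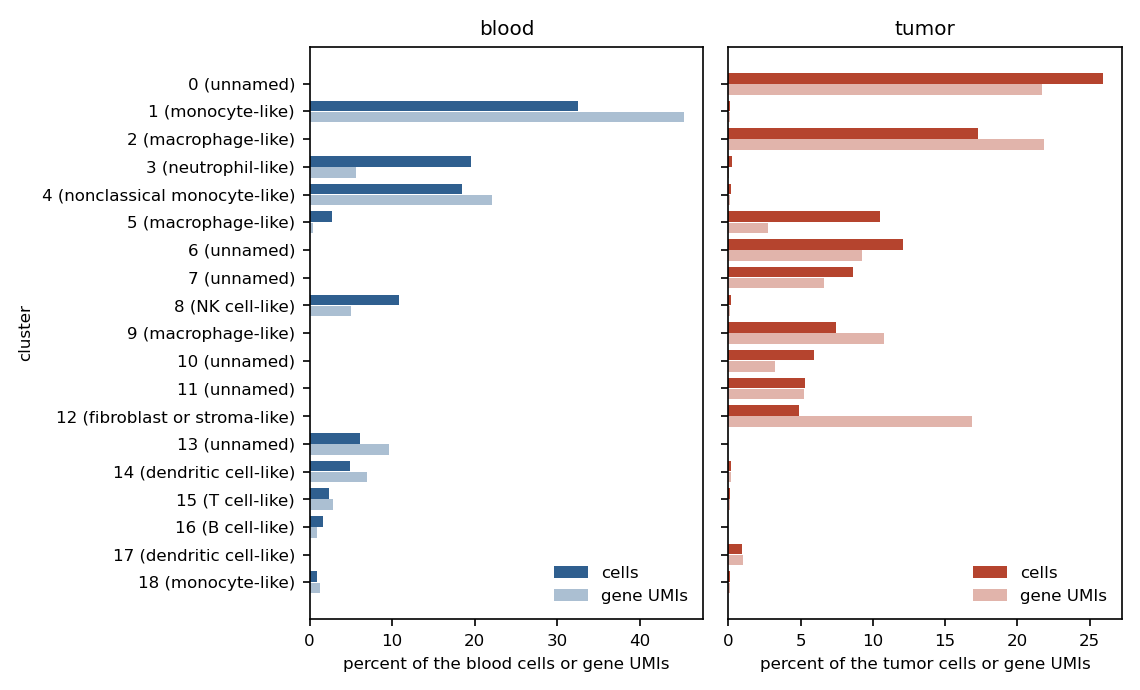
For blood (left) and tumor (right), full bars give the percent of cells and pale bars the percent of gene UMIs in each of the 19 clusters. Stroma-like cluster 12 is 4.86% of the tumor cells and 16.8% of their UMIs, and neutrophil-like cluster 3 is 19.6% of the blood cells and 5.59% of their UMIs.

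Cluster 6 had the highest Lyz2, Ly6c2 and Plac8 levels of the tumor clusters, with Lyz2 at 20404 CPM against 29655 in monocyte-like blood cluster 1, Ly6c2 at 1047 against 1687, Plac8 at 5111 against 3708 and Arg1 at 51.9 against 0 CPM. It also had the highest Cxcl10 level of the tumor clusters, 2689 CPM, and held 63.5% of the Hp UMIs of the tumor cells. Cluster 0 kept Ly6c2 at 834 and Plac8 at 3016 CPM but had Arg1 at 1331, Nos2 at 261 and Cxcl9 at 1764 CPM. Macrophage-like cluster 2 had Arg1 at 3310 and Spp1 at 3593 CPM with Ly6c2 at 195 CPM.

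Macrophage-like cluster 9 was set apart by C1qa (3411 CPM), Pf4 (3451 CPM), Ccl12 (2088 CPM) and Mrc1 (1087 CPM), and it held 93.7% of the Folr2 and 71.8% of the Pf4 UMIs of tumor cells. Cluster 7 had the highest levels of Hilpda (1656 CPM), Fth1 (51681 CPM) and the heat-shock gene Hspa1a (1947 CPM), and of Rsad2 (1420 CPM). High Arg1 was thus found in clusters 2, 7 and 9, at 3310 to 3761 CPM, which differed in C1qa at 842, 259 and 3411 CPM.

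**Figure D4:**
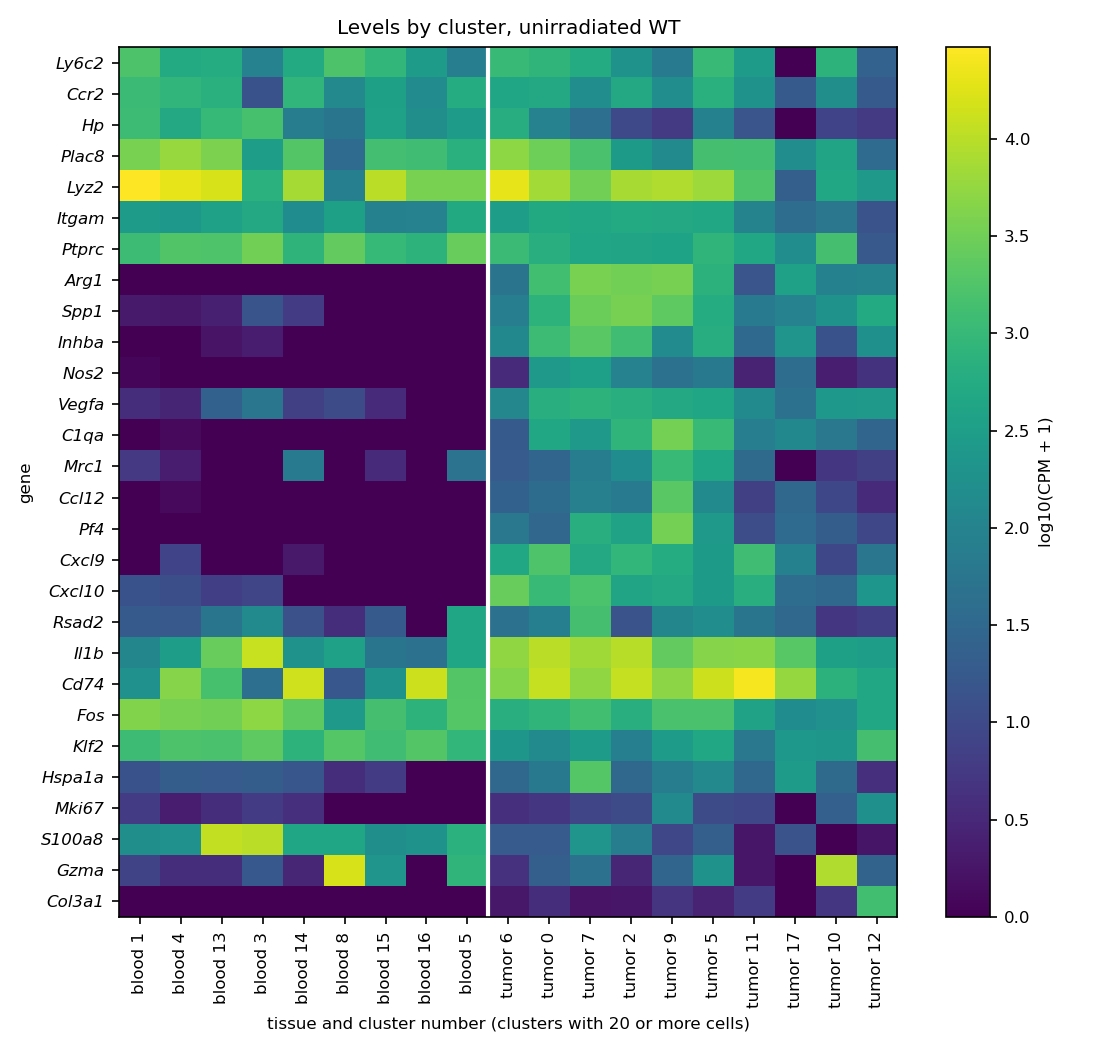
Columns are the clusters with 20 or more cells, blood at the left and tumor at the right of the white line, rows are genes, and color gives log10 of CPM plus 1. Arg1 is at 0 CPM in all blood clusters shown and between 13.9 and 3761 CPM in the tumor clusters, and Col3a1 is high in tumor cluster 12.

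Cells of other types had passed the sort and the rules. Stroma-like cluster 12 had 131 tumor cells with a median of 25203 UMIs, and 594 of the 1616 higher genes had most of their tumor UMIs there. The summed level of the 7 stroma markers was 703 CPM in tumor and 1.04 CPM in blood, with 99.1% of the Col3a1 and 99.2% of the Sparc UMIs in that cluster. Of the neutrophil markers outside the neutrophil rule, Ly6g had 1 UMI in tumor and 29 UMIs in blood, and Mmp9 and Mmp8 were lower in tumor as given above. All 8 neutrophil markers, with the 5 genes of the rule among them, summed to 113 CPM in tumor and 5147 CPM in blood. Neutrophil-like cluster 3 kept 376 blood cells. Unnamed cluster 13 held 117 blood cells with raised markers of both nonclassical monocytes and neutrophils, and its neutrophil markers summed to 27988 CPM. The 5 red cell markers summed to 0.227 against 1613 CPM. The NK cell markers summed to 412 and 1095 CPM, T cell markers to 115 and 120 CPM, and B cell markers to 23.2 and 372 CPM. The 6 carcinoma markers summed to 3.45 CPM in tumor, with 3 of them at 0. Unnamed cluster 10 held 160 tumor cells with NK and T cell genes, and 73.2% of the UMIs of Gzmc, a granzyme with at least 1144-fold more in tumor. Fewer cells of a type and less RNA per cell cannot be told apart in the summed values.

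The comparison was therefore repeated between monocyte-like blood clusters 1 and 18 (643 cells) and tumor clusters 0, 2, 5, 6, 7 and 9 (2206 cells), a choice made after the clusters were seen. In this comparison, tumor clusters 0, 6 and 7 were unnamed. There 1103 genes were higher and 1256 lower in tumor, of 8663 measured genes. Of these, 27.2% were past the limit in either direction, and their median log2 ratio was −0.21. The list counts are of the same measured members as above. The median was −1.44 for the blood-monocyte genes, with 17 lower and 2 higher, and 3.32 for macrophage genes, with 16 higher and 1 lower. It was 6.62 for suppressive genes (19 higher), 2.15 for glycolysis and hypoxia genes (23 higher, 0 lower), 7.34 for chemokine ligands (18 higher), 2.41 for MHC class II genes (10 higher) and 2.30 for NF-kB genes (17 higher). Hp was at −3.27 and Inhba at 13.44. Ptprc was at −0.97.

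Shares of cells with a UMI were compared after each cell had been thinned to 1000 UMIs, which left out 85 tumor and 44 blood cells below that depth. Arg1 was found in 37.6% of 2609 tumor cells and in 0 of 1877 blood cells, which allows a share of up to 0.196%. In tumor cluster 10, whose NK and T cell genes mark cells that should lack Arg1, the share was 2.50%. The median depth before thinning was 6859 UMIs in tumor, 8623 in blood and 3037 in cluster 10, and the Arg1 share of unthinned tumor cells was 51.6%. Spp1 was found in 32.1% of tumor and 0.266% of blood cells (6.25% of cluster 10), C1qa in 21.2% and 0% (1.88%), and Inhba in 26.9% and 0.0533% (0 of 160 cells, which allows up to 2.28%). Vegfa was in 33.4% and 1.23%, and its share of 25.6% in cluster 10 had an interval of 19.1% to 33.1%. In the other direction, Hp was found in 7.44% of tumor and 45.7% of blood cells, against 0.625% of cluster 10 and 4.21% of the lymphoid blood clusters 8, 15 and 16 (285 cells, median 3371 UMIs before thinning). Free RNA of the blood library held Hp at 1265 CPM, above the 834 CPM of the kept blood cells. Ly6c2 was found in 27.8% of tumor and 46.6% of blood cells, with 44.4% in cluster 10, and Il1b in 75.7% and 33.6%, with 15.6% in cluster 10. Lyz2 had nearly equal shares, 76.2% and 73.4%, while its level was lower in tumor.

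The other 3 pairs of pools gave their own ratios, although tumor barcodes were shared between the control and the irradiated matrix. Among genes measured in each pool pair, 2289 were higher and 1790 lower in cKO control, 1374 and 1755 in WT IR, and 1470 and 1802 in cKO IR. Of the 1616 higher genes of the WT control, 1113 (68.9%) were past the limit in all 4 pairs, and of the 1529 lower genes 995 (65.1%). Arg1 had log2 ratios of 13.25, 12.24 and 14.49, Spp1 10.26, 8.89 and 8.80, Vegfa 6.43, 6.91 and 7.02, and Hp −4.18, −2.91 and −3.27 in cKO control, WT IR and cKO IR. C1qa was at 10.56, 7.51 and 12.32. The median of the glycolysis and hypoxia list was 1.95, 1.93 and 1.99, and that of the chemokine ligands 6.36, 7.65 and 7.42. Ly6c2 was at −2.25 in cKO control, −0.10 in WT IR and −0.42 in cKO IR, and the differences between pairs were not tested.

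**Figure D5:**
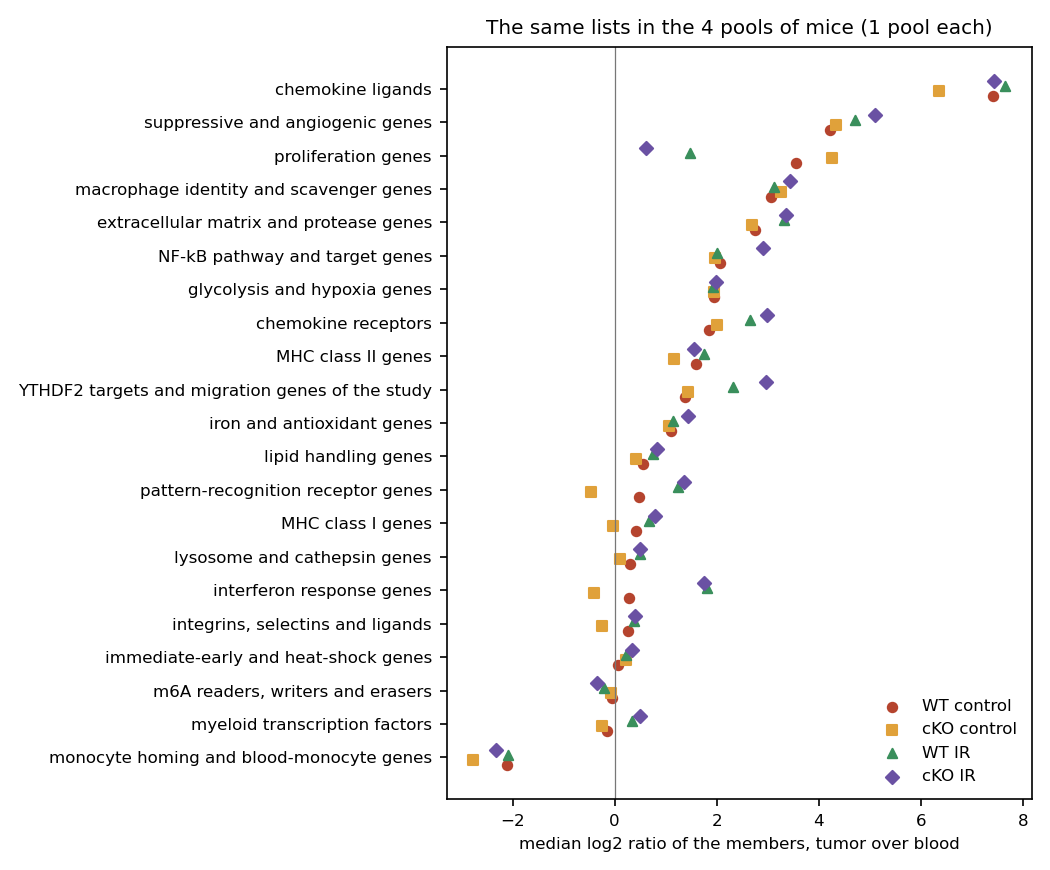
Each row is a gene list and each symbol the median log2 ratio of its measured genes, tumor over blood, in 1 of the 4 pairs of pools. The blood-monocyte list is negative in all 4 (−2.77 to −2.10), and the interferon list is at 0.27 and −0.41 in the control pairs and at 1.80 and 1.75 in the irradiated pairs.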

How the data were processed

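Raw counts of UMIs per gene and barcode were deposited by the authors for 4 libraries, made per their methods and the labels with Cell Ranger 6.0.1 on mm10, while the matrix headers name Cell Ranger 4. The authors' own cell filters and cell types were not used here. The members and lists were chosen with earlier results of these data known. Counts were summed over the kept WT cells of each tissue and scaled to CPM over all genes. Genes with at least 100 UMIs over both groups were called at a 2-fold ratio with 1 UMI added. Ratios have exact conditional binomial intervals, levels exact Poisson and shares Clopper-Pearson intervals, all at 95%. With 1 pool per group no count test was run, and edgeR 4.0.16 and DESeq2 1.42.0 gave scaling factors only.

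Cells were clustered with scanpy 1.11.5 and leidenalg 0.10.2 (2000 variable genes, 40 components, 20 neighbors, resolution 0.8). A cluster was named where at least 3 markers of a fixed list were raised and its leading genes did not go against the name. Doublets were not removed, and leaving out the 6% highest Scrublet scores was an alternative. The text names the sort and label genes, the 15 highest and 15 lowest ratios among genes with at least 200 CPM in the higher group (without Gm, Rik, mitochondrial, immunoglobulin and hemoglobin genes and the neutrophil rule's genes), the genes the study names, and up to 8 members per list by ratio and level. Some genes that this rule selects are not reported here. Genes chosen after their values were seen were Vegfa, Cxcl9, Cxcl10, Ldha, Pgk1, Tpi1, Slc2a1, Slc16a3, Pdk1, Hif1a, Tnf, Cd274, Areg, Mki67, Mrc1, Tlr2, Tlr4, Itga4, Igkc, and Hspa1a among the cluster levels. The ratios, limit and intervals were run on simulated Poisson counts. Those counts hold no variation between pools, free RNA, shared barcodes or mixed cell types, so they cannot test for such effects. In addition, 17 planned and 4 later alternatives were run.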

Additional observations from a re-analysis of the deposited data

Results flagged for a closer look

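Some values had opposite signs in unirradiated WT mice and in another pair of pools. None of these differences was tested, since each group was 1 pool. Ifit3b, an interferon-induced gene, was lower in tumor in WT control (−1.22) and higher in WT IR (1.72) and cKO IR (1.68). Igkc, the immunoglobulin kappa constant gene, was at −8.93 in WT control, from 3 tumor and 1347 blood UMIs, and at 2.04 in WT IR. The median of the interferon list was 0.27 in WT control and −0.408 in cKO control. The medians of 3 further lists also changed sign between these pairs, from 0.41 to −0.0224 for MHC class I genes, from 0.27 to −0.242 for integrins, selectins and their ligands, and from 0.47 to −0.456 for pattern-recognition receptors. The median of the transcription factors was −0.15 in WT control, 0.338 in WT IR and 0.493 in cKO IR.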

How the results depend on the processing

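No paired analysis was possible because each group was 1 pool, and no replicate could be left out. Against 1616 genes higher and 1529 lower in tumor, the counts under 21 alternatives stayed within 1.5 times except for the following. A minimum of 20 UMIs gave 2474 higher genes, and of 1 UMI 3768 higher and 3976 lower, since more genes were tested. Without barcodes shared with the irradiated matrix, which left 110 tumor cells, 2551 of 8136 measured genes were lower. Fewer genes were higher among Ly6c2-positive cells (711 of 8043 measured), without clusters 10, 11 and 13 and the named non-monocytic clusters (1063 of 8940), and without the stroma-like cluster (1010 of 9582). The last 2 were chosen after seeing the data. TMM and DESeq2 scaling gave 1801 and 1856 higher against 1255 and 1181 lower genes.

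Ratios of named genes past the limit that changed sign were few, and the cause was not tested. With blood neutrophils kept, Ccr1 was at −0.67 and Clec4e at −0.018. Without the shared barcodes, Gapdh was at −0.21, Cxcr6 −2.91, Gpnmb −2.33, Pparg 1.96, Fabp4 1.07, Lgals1 −0.13, Serpinb2 0.39, Bhlhe41 −2.18, Igf2bp2 −2.01 and Igf2bp3 −3.87. Igf2bp3 was also at −0.33 without the named clusters, −0.29 among Ly6c2-positive cells, −0.91 without clusters 10, 11 and 13, and −0.44 without stroma. Its ratio was −0.84 between the monocyte-like blood clusters and the monocyte and macrophage part of the tumor. Among Ly6c2-positive cells Ccr7 was at −0.63, Pparg at 0.038 and Fabp4 at 1.01. Between the monocyte-like blood clusters and the monocyte and macrophage part of the tumor, Pparg was at 0.83 and Fabp4 at 4.41. A count of 0 in blood limits Arg1 and other ratios to lower bounds.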

Other observations

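Barcodes with fewer than 100 UMIs, which hold mostly free RNA, had Arg1 at 2063 CPM in the tumor library and 16.9 CPM in the blood library, where the kept WT cells had 0 UMIs. C1qa was at 1040 and 3.1 CPM and Pf4 at 1349 and 8.28 CPM in such barcodes.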
